A study of Mus musculus with 24 samples.

Results

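The collagen chain genes were taken as every gene on the array whose name has the form Col, a type number, the letter a and a chain number, which gave 43 of the 34832 gene names on the array. Each gene was read from the probe with the highest mean log2 signal over all 24 arrays, since 17 of the 43 had more than 1 probe. They comprised 11 fibrillar chains, the 6 chains of the basement membrane collagen type IV, 6 chains of type VI, 9 FACIT chains (fibril-associated collagens with interrupted triple helices), 3 short-chain network chains, 4 transmembrane chains, 2 multiplexins, the anchoring fibril chain Col7a1 and Col28a1. Signals were read from 1-colour microarrays of primary murine alveolar type II cells, the surfactant-producing cells of the lung alveolus, grown at an air-liquid interface for 3 days until they formed a monolayer.

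In the first experiment the cultures received NaHS at 100 µM, which gives off hydrogen sulfide quickly once dissolved, for 24 h or for 6 h, or DMEM medium as vehicle for 24 h or for 6 h, with 4 arrays in each of the 4 groups. In the second, 4 cultures in 85% O2 were set against 4 in 21% O2 for 24 h, and all 8 carried 100 µM GYY4137, a donor that releases hydrogen sulfide slowly. The 24 samples held no culture of that experiment without the donor. The labels do not say whether the 4 samples of a group came from separate animals or cultures, so p-values measure the spread between these samples, which may be technical.

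Collagens are trimers of chains wound into a triple helix. Fibrillar collagens such as types I, III and V assemble into the fibres that carry tension in the lung interstitium, and fibroblasts are their main source. Type IV chains assemble into the sheet-like network of basement membranes, on which alveolar epithelium and endothelium rest. The chains encoded by Col4a1 and Col4a2 form the network found in nearly all basement membranes, while those of Col4a3, Col4a4 and Col4a5 form a network found in few places, among them the glomerulus and the alveolus. The type IV genes lie in head-to-head pairs that are read in opposite directions, Col4a1 with Col4a2, Col4a3 with Col4a4 and Col4a5 with Col4a6.

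The promoter windows of Col4a1 and Col4a2 are shown because these neighbours were the type IV chains that passed the test in the results that follow. In the RefSeq annotation of GRCm38.p6 their start sites lay 21 bases apart, and the windows, 250 bases before to 50 bases after each start, overlapped by 78 bases. Each start lay inside the other annotated gene, so the annotated transcripts overlapped at their starts with no gap between them. The part of each window before the start thus ran into the other gene. The Col4a1 window is chr8:11312777-11313076 on the minus strand and the Col4a2 window is chr8:11312555-11312854 on the plus strand. Capitals mark CCAAT and GGGCGG, or their reverse complements ATTGG and CCGCCC.
Col4a1: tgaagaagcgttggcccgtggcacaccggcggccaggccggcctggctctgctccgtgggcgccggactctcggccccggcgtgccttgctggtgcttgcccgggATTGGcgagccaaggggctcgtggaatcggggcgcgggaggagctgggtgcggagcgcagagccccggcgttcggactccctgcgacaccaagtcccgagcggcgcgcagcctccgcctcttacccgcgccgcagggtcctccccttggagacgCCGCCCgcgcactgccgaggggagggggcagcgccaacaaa
Col4a2: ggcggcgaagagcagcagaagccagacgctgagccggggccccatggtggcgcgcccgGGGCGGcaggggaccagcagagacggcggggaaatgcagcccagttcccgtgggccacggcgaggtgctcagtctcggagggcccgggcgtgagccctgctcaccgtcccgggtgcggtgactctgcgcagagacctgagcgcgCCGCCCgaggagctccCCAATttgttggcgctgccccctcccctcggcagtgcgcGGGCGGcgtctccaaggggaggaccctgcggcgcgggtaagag
The Col4a1 window held 1 CCAAT and 1 GGGCGG, the Col4a2 window held 1 CCAAT and 3 GGGCGG, and neither held TATAAA on either strand. The GGGCGG of the Col4a1 window was the same site as 1 of the 3 of the Col4a2 window, within the shared stretch. Over all 32851 windows of this kind, 37.4% held CCAAT, 35.7% held GGGCGG and 13.6% held TATAAA. A match describes letters in the window and is not a binding site. A window was given for 35 of the 43 genes, and the start sites of Col4a5 and Col4a6 lay 1343 bases apart on opposite strands of chromosome X.

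Levels are log2 of the scanner's processed signal minus the log2 75th percentile of the array, so a level of 0 is the array's 75th percentile. Between 55.8% and 78.2% of the spots of an array were well above background and 0 were saturated. Of the 43 genes, 30 were well above background on all 24 arrays, Col9a3 and Col13a1 on none, and 5 were tested in neither experiment (Col6a5, Col6a6, Col9a3, Col13a1 and Col28a1) because they passed on fewer than 4 arrays of each. In the first experiment 38 genes were tested and in the second 37. Slides 1 and 2 each held 2 arrays of each group of the first experiment, with the 24 h arrays in the second row and the 6 h arrays in the first row of a slide, so row and time cannot be told apart. The vehicle arrays lay in columns 1 and 2 and the NaHS arrays in columns 3 and 4, so column and NaHS cannot be told apart either. In the second experiment the 85% O2 arrays lay on slide 4 and the 21% O2 arrays on slide 3, so slide and oxygen cannot be told apart. The labelled cell type was checked against its markers: in every group 9 or 10 of 12 alveolar type II markers and all 6 general epithelial markers were well above background on all 4 arrays. So were 10 or 11 of 12 fibroblast markers, 9 or 10 of 10 smooth muscle and pericyte markers and all 4 mesothelial markers. In such bulk RNA, fewer cells of a type and less RNA per cell cannot be told apart.

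**Figure D1:**
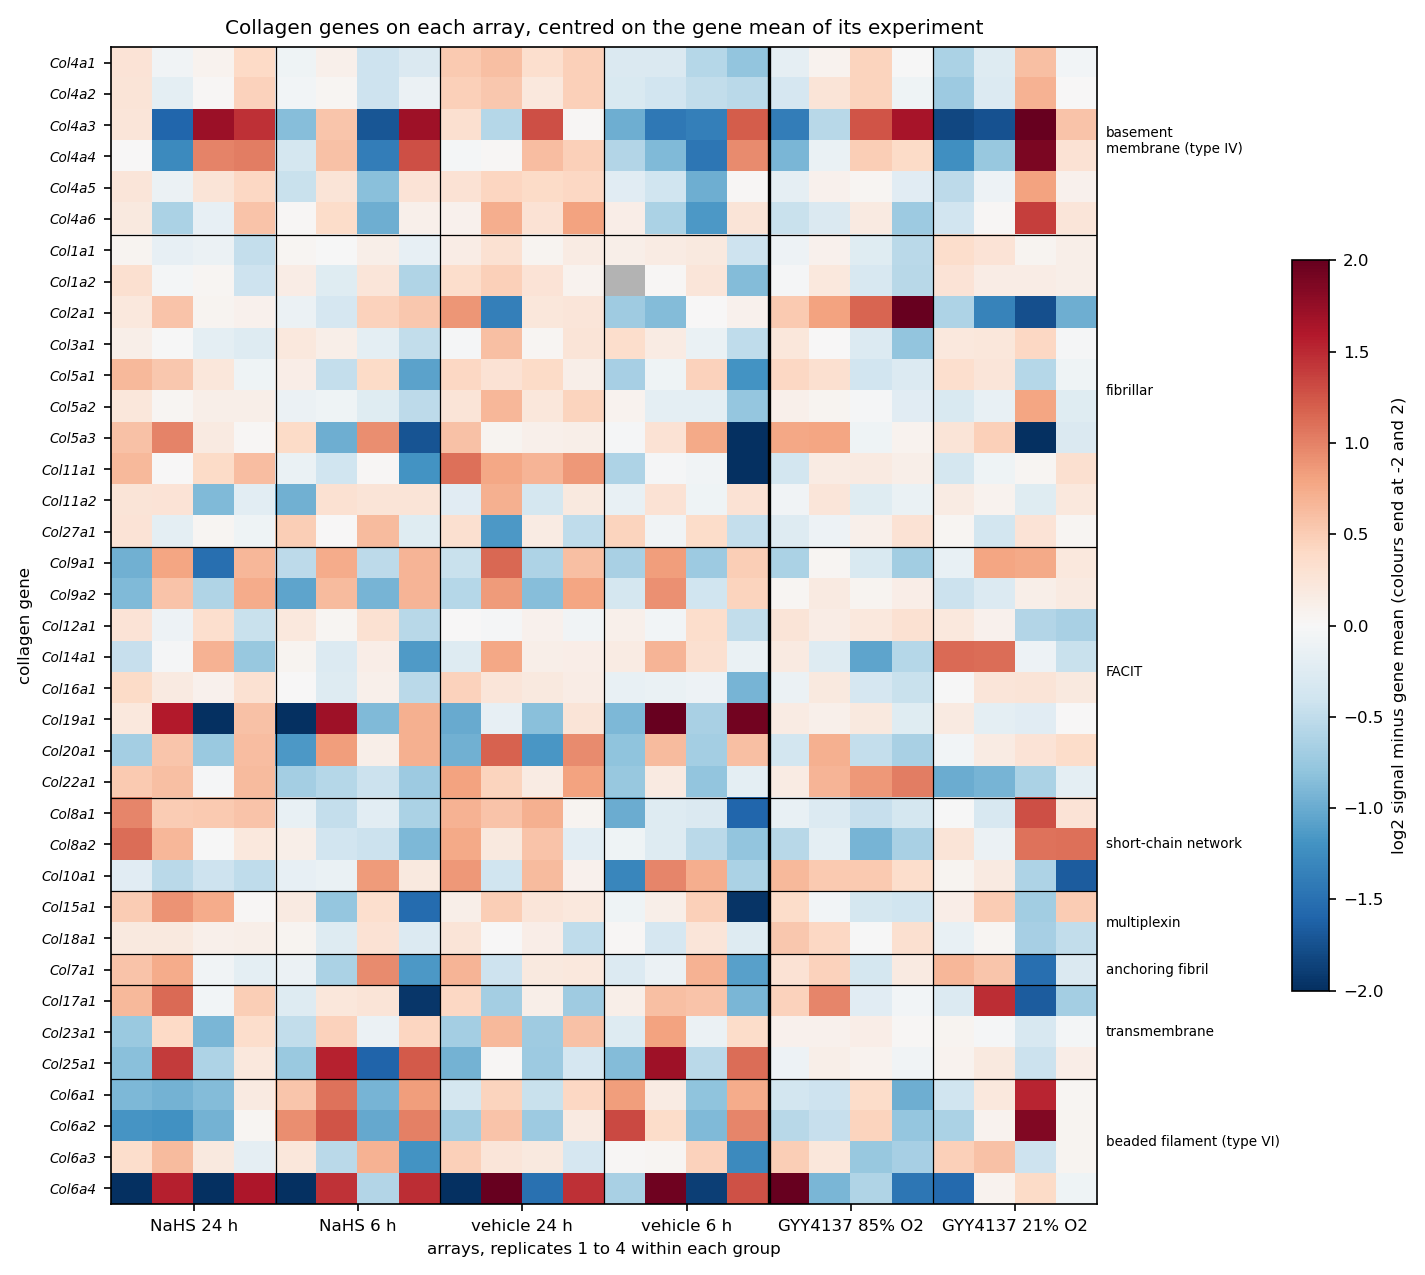
Level of the 37 collagen genes tested in both experiments on each of the 24 arrays (columns, replicates 1 to 4 within each group), as log2 signal minus the gene's mean over its own experiment. Red is above and blue below that mean, with colours ending at -2 and 2, and grey marks the vehicle 6 h array on which the Col1a2 spot was an outlier; Col4a1 and Col4a2 are above their mean on all 4 vehicle 24 h arrays and below it on all 4 vehicle 6 h arrays.

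Time in culture was compared first in the vehicle groups. Of the 38 collagen genes tested, 3 were higher at 24 h than at 6 h and 0 were lower at an adjusted p under 0.05 (limma, Benjamini-Hochberg over all 27177 genes tested), against 1.16% of all genes, 0.688% higher and 0.475% lower. These were Col4a1, Col4a2 and Col8a1. All 6 type IV chains had a positive difference, with a median of 0.84 on the log2 scale and a range of 0.76 to 0.97, while 8 of 11 fibrillar chains had a positive difference with a median of 0.36. Over all genes 52.8% were positive and the median was 0.02. A limma fit with the slide as a block called 5 collagen genes and 3.2% of all genes. One with the replicate number as a block called 6 collagen genes and 3.89% of all genes.

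Col4a1, which encodes the alpha 1 chain of type IV collagen (probe at chr8:11199009-11199068, minus strand, mm9), had levels of 6.28, 6.36, 6.08 and 6.23 on the vehicle 24 h arrays, against 5.47, 5.47, 5.19 and 4.96 on the vehicle 6 h arrays. Every vehicle 24 h array lay above every vehicle 6 h array. The difference was 0.97 ± 0.15 on the log2 scale (SE, n = 4 each), or 1.96-fold, with an adjusted p of 0.0143 by limma. Within slide 1 it was 0.85 and within slide 2 it was 1.08. Leaving out vehicle 24 h replicate 1 moved the adjusted p of Col4a1 to 0.0602, and with any other of the 8 vehicle arrays left out it passed.

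Col4a2, which encodes the alpha 2 chain that pairs with it (probe at chr8:11448840-11448899, plus strand, mm9), had levels of 5.80, 5.85, 5.53 and 5.79 on the vehicle 24 h arrays, against 5.02, 4.94, 4.82 and 4.78 on the vehicle 6 h arrays. These groups did not overlap either. The difference was 0.85 ± 0.14 (SE, n = 4 each), or 1.81-fold, with an adjusted p of 0.0181 by limma, and it was 0.75 within slide 1 and 0.96 within slide 2. Without vehicle 6 h replicate 4, vehicle 24 h replicate 1 or vehicle 24 h replicate 2 its adjusted p was 0.0513, 0.0748 and 0.0510 by limma. Both calls rested on a spread estimated over all 4 groups of the experiment. In a limma fit of the vehicle groups alone 0 of all genes were called, and the adjusted p of Col4a1 was 0.215. With arrays centred on their median in place of the 75th percentile and no slide block, 0 collagen genes and 1 of all 27177 genes were called. The gap between those percentiles was 4.14 to 4.28 on slide 1 and 3.25 to 3.38 on slide 2. With the slide added as a block the median-centred values gave 4 collagen calls, with 1.84% of all genes called.

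The other 4 type IV chains did not pass the test. Col4a5, a chain of the alveolar and glomerular network, had levels of 2.49, 2.63, 2.58 and 2.61 on the vehicle 24 h arrays, against 1.97, 1.79, 1.22 and 2.21 on the vehicle 6 h arrays. The groups did not overlap, but the difference of 0.78 ± 0.25 (SE) had an adjusted p of 0.172 by limma. Col4a6, the neighbour of Col4a5, had levels of 0.33, 0.97, 0.53 and 1.04 on the vehicle 24 h arrays, against 0.36, -0.39, -0.91 and 0.49 on the vehicle 6 h arrays. The groups overlapped, and its difference of 0.83 ± 0.37 (SE) had an adjusted p of 0.367 by limma, while another measured Col4a6 probe gave -0.16.

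Col4a3 had the widest spread of the type IV chains, with an SD of 0.77 to 1.86 within the 6 groups. It had levels of -0.53, -1.41, 0.43 and -0.83 on the vehicle 24 h arrays, against -1.83, -2.28, -2.21 and 0.37 on the vehicle 6 h arrays, where replicate 4 stood over 2 log2 units above the others. The groups overlapped, and the difference of 0.91 ± 0.87 (SE) was 1.97 within slide 1 and -0.16 within slide 2. Col4a4, its neighbour, had levels of 0.42, 0.48, 1.07 and 0.92 on the vehicle 24 h arrays, against -0.13, -0.43, -0.995 and 1.40 on the vehicle 6 h arrays. Replicate 4 at 6 h was the highest of the 8 for Col4a4, and the difference was 0.76 ± 0.65 (SE).

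**Figure D2:**
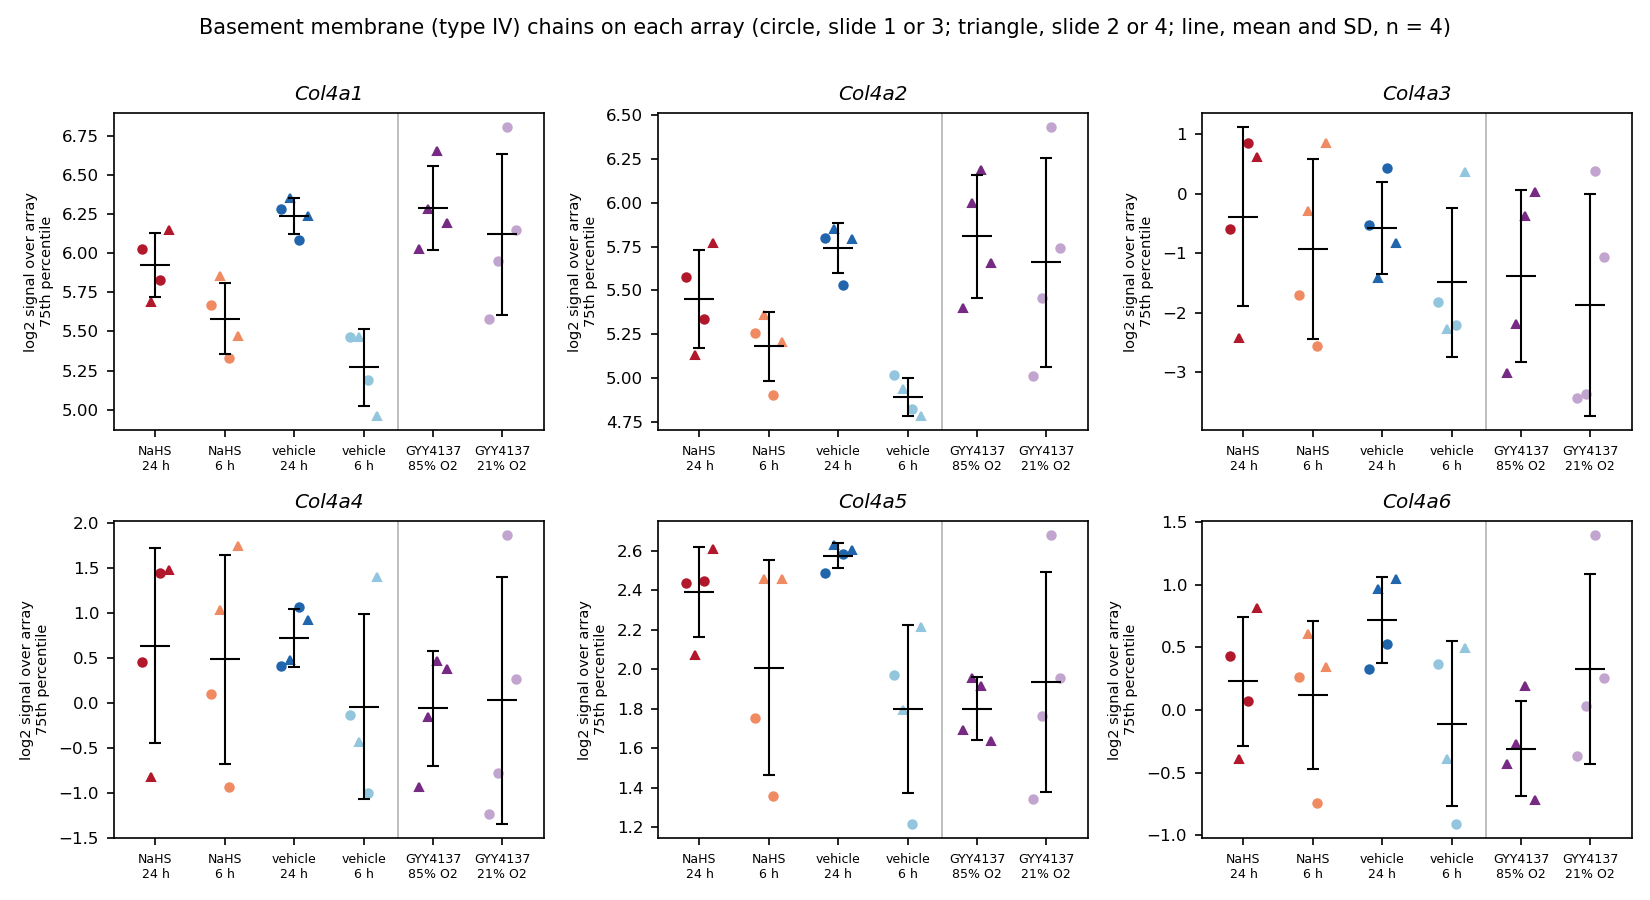
Level of the 6 type IV chains on each array of the 6 groups, as log2 signal relative to the 75th percentile of that array, with circles for slides 1 and 3, triangles for slides 2 and 4, and a line with bars for the mean and SD of 4 arrays. Col4a1, Col4a2 and Col4a5 of the vehicle 24 h arrays lie above all vehicle 6 h arrays, and Col4a3 and Col4a4 spread widely within the groups.

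The same interval was then compared with NaHS present. Of the 38 collagen genes 0 were called at 24 h against 6 h by limma, also with the slide or the replicate number as a block, where 0.0405% of all genes were called without a block, 0.173% with the slide and 0.21% with the replicate number as a block, and 8 collagen genes and 2252 of all 27177 genes had an unadjusted p under 0.05. All 6 type IV chains were positive, with a median difference of 0.31, and 7 of 11 fibrillar chains were positive, with a median of 0.09. Another measured Col4a6 probe gave -0.18, and other Col4a4 probes gave -0.007 and 0.23. With the mean of all probes of a gene 5 of the 6 type IV chains were positive. The type IV count was 3 of 6, with a median of 0.0789, without NaHS 6 h replicate 3, and 4 of 6 without NaHS 24 h replicate 4. Within slide 2 it was 2 of 6, with a median of -0.19. Col4a1 had levels of 6.03, 5.69, 5.83 and 6.15 on the NaHS 24 h arrays, against 5.67, 5.85, 5.33 and 5.47 on the NaHS 6 h arrays. The groups overlapped, and the difference was 0.34 ± 0.15 (SE, adjusted p = 0.552 by limma). Col4a2 had levels of 5.58, 5.13, 5.33 and 5.77 on the NaHS 24 h arrays, against 5.26, 5.36, 4.90 and 5.203 on the NaHS 6 h arrays, which overlapped as well.

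The other type IV chains overlapped between the NaHS times too. Col4a5 had levels of 2.44, 2.07, 2.45 and 2.61 on the NaHS 24 h arrays, against 1.76, 2.46, 1.36 and 2.46 on the NaHS 6 h arrays. Col4a6 had levels of 0.43, -0.39, 0.07 and 0.81 on the NaHS 24 h arrays, against 0.26, 0.61, -0.74 and 0.34 on the NaHS 6 h arrays. For both the lowest 6 h array was replicate 3. Col4a3 had levels of -0.60, -2.44, 0.86 and 0.61 on the NaHS 24 h arrays, against -1.70, -0.30, -2.57 and 0.85 on the NaHS 6 h arrays, and its difference was 2.26 within slide 1 and -1.19 within slide 2. Col4a4 had levels of 0.46, -0.82, 1.45 and 1.48 on the NaHS 24 h arrays, against 0.10, 1.03, -0.93 and 1.75 on the NaHS 6 h arrays. In Col4a3 and Col4a4 alike the lowest array was replicate 2 at 24 h and replicate 3 at 6 h.

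Over the 16 arrays of the first experiment the neighbouring type IV genes varied together. Pearson's r between Col4a1 and Col4a2 was 0.97 (Spearman's rho 0.99), between Col4a3 and Col4a4 0.96 (rho 0.94) and between Col4a5 and Col4a6 0.86 (rho 0.82). The permutation p of r was 1e-05, 1e-05 and 4e-05 in that order, where 1e-05 is the smallest the permutations can give, and the adjusted permutation p over the 174 correlations computed was 0.00058, 0.00058 and 0.000994. The permutation p of rho was 1e-05, 1e-05 and 0.00024. The permutations shuffled all 16 arrays freely over groups and slides. Arrays of a slide deviated together, so these p-values treat dependent arrays as independent and can be too small. Without the 2 arrays farthest from the median of the first-named chain, r was 0.98, 0.94 and 0.69. The 12 other combinations of type IV chains had r between 0.26 and 0.80.

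The arrays share slides, so r was also taken within subsets. Within slide 1 the neighbours had r of 0.86 to 0.99 and the other combinations 0.62 to 0.92. The 0.86 was that of Col4a5 with Col4a6, which was 0.22 without the 2 farthest arrays of that slide. Within slide 2 the neighbours had 0.92 to 0.97 and the others -0.15 to 0.82. On the 8 arrays of the GYY4137 experiment the neighbours had 0.89 to 0.98 and the others 0.47 to 0.90. In every one of these subsets the range of the neighbours reached higher than that of the other combinations, and the difference between the ranges itself was not tested.

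The Col4a3 and Col4a4 levels also moved with Ager, which encodes the receptor for advanced glycation end products and marks alveolar type I cells. Over the 16 arrays r was 0.93 for Col4a3 (rho 0.90) and 0.84 for Col4a4 (rho 0.84), with permutation p of 3e-05 and 0.00012 (rho 1e-05 and 7e-05), and adjusted permutation p of 0.00087 and 0.00151. Without the 2 farthest arrays r was 0.92 and 0.87. Of the 9 type I markers only Ager was set against the chains. These correlations were not planned, and their p-values also treat the arrays as independent. Within slides 1 and 2 and in the GYY4137 experiment r of Col4a3 with Ager was 0.98, 0.94 and 0.94. For Col4a1 it was -0.03 over the 16 arrays (rho 0.04, permutation p 0.901 and 0.890) and 0.38 without the 2 farthest arrays. Within slide 1 it was 0.73, within slide 2 it was -0.43, and in the GYY4137 experiment it was 0.72 (exact permutation p 0.0451, adjusted 0.0826). Ager itself ranged from -1.19 to 2.89 on the NaHS 24 h arrays, from -0.49 to 3.81 on the NaHS 6 h arrays, from -1.10 to 2.42 on the vehicle 24 h arrays and from -0.11 to 3.16 on the vehicle 6 h arrays. The summed linear level of all 9 type I markers, in multiples of the array's 75th percentile, was 141 to 160 on the vehicle 24 h arrays and 114 to 184 on the vehicle 6 h arrays, and the part of these cells in the Col4a3 levels was not tested.

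**Figure D3:**
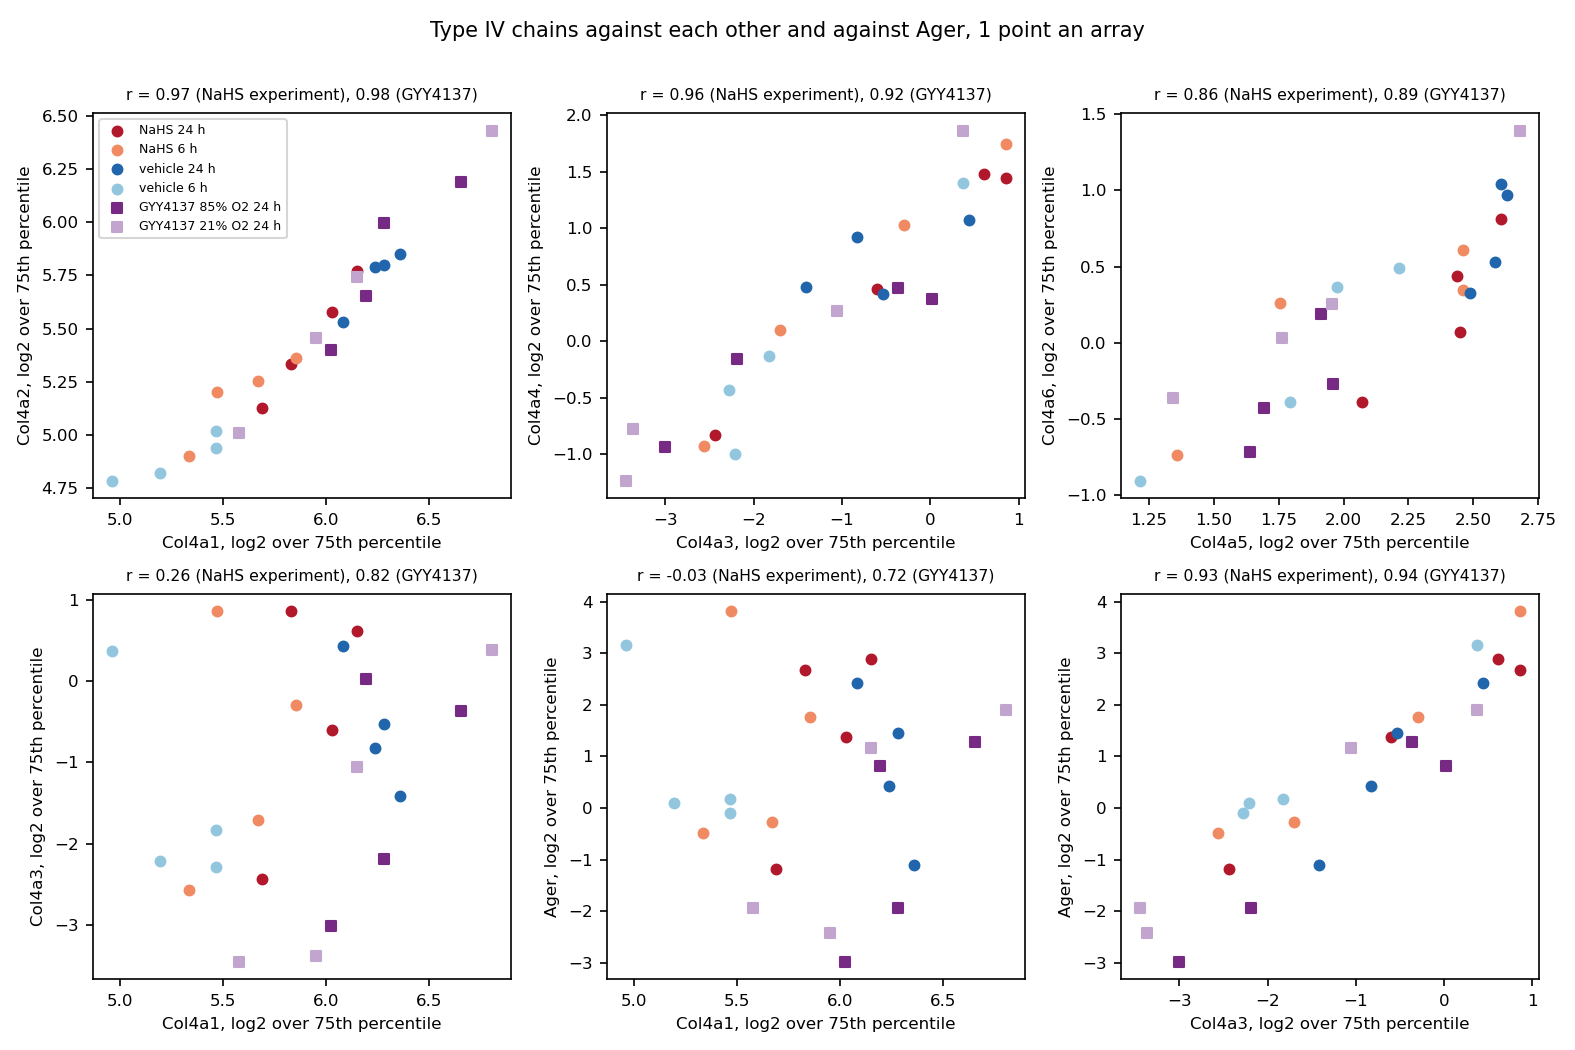
Level of one type IV chain against another, or against Ager, on each array (log2 signal over the array's 75th percentile), coloured by group. The panels of neighbouring genes show narrow diagonals, Col4a3 rises with Ager, and Col4a1 does not line up with Col4a3 over the 16 arrays of the NaHS experiment (r = 0.26).

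Fibrillar chains showed 0 calls between the vehicle times without a block, and 2 of 11 had an unadjusted p under 0.05. Col1a1, the alpha 1 chain of type I collagen, had levels of 7.62, 7.78, 7.53 and 7.63 on the vehicle 24 h arrays, against 7.58, 7.63, 7.66 and 7.05 on the vehicle 6 h arrays. Only replicate 4 at 6 h stood apart, and the difference was 0.16 ± 0.14 (SE, adjusted p = 0.8293 by limma). Col1a2, the alpha 2 chain of type I, had levels of 9.12, 9.24, 9.03 and 8.83 on the vehicle 24 h arrays, against 8.78, 8.999 and 7.89 on vehicle 6 h replicates 2 to 4, since the spot of replicate 1 was an outlier and was dropped. Its difference was 0.50 ± 0.27 (SE), and the groups overlapped.

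Col3a1, the type III chain of distensible tissues, had levels of 6.21, 6.84, 6.27 and 6.49 on the vehicle 24 h arrays, against 6.59, 6.40, 6.10 and 5.74 on the vehicle 6 h arrays, which overlapped. Its difference was 0.25 ± 0.21 (SE). Col5a2, a type V chain that takes part in starting type I fibrils, had levels of 2.35, 2.76, 2.33 and 2.54 on the vehicle 24 h arrays, against 2.18, 1.90, 1.91 and 1.32 on the vehicle 6 h arrays. These groups did not overlap. The difference of 0.67 ± 0.17 (SE) had an adjusted p of 0.0727 by limma and of 0.0464 with the slide as a block, and it was 0.30 within slide 1 and 1.04 within slide 2. With NaHS Col5a2 had levels of 2.32, 2.14, 2.21 and 2.21 on the 24 h arrays, against 1.98, 2.01, 1.86 and 1.57 on the 6 h arrays. These did not overlap either, and the difference was 0.37 ± 0.17 (SE, adjusted p = 0.585 by limma).

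Col11a1, a type XI chain of cartilage fibrils, had the largest positive difference among the fibrillar chains, 1.71 ± 0.47 (SE, adjusted p = 0.106 by limma). It had levels of 2.997, 2.68, 2.59 and 2.78 on the vehicle 24 h arrays, against 1.28, 1.88, 1.83 and -0.77 on the vehicle 6 h arrays. The groups did not overlap, and replicate 4 at 6 h was far below the other 3. That array was also the lowest of its group for Col1a1, Col1a2, Col3a1, Col5a2, Col5a3, Col4a1 and Col4a2. It was the highest for Col4a3, Col4a4, Col4a5 and Col4a6, and for the fibrillar chain Col2a1. Without it the fibrillar median was 0.09, the type IV median was 0.97 and 1 collagen gene was called, Col4a1, with 0.331% of all genes. Without replicate 4 of both vehicle 6 h and NaHS 6 h, Col4a1 and Col11a1 were called by limma, with 0.309% of all genes.

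When each gene was centred on its mean in the experiment and averaged per array, the type IV chains stood at 0.38 ± 0.12 on the vehicle 24 h arrays and at -0.46 ± 0.50 on the vehicle 6 h arrays (SD, n = 4 each). The fibrillar chains stood at 0.22 ± 0.11 on the vehicle 24 h arrays and at -0.22 ± 0.46 on the vehicle 6 h arrays. The type IV mean minus the fibrillar mean was 0.16 ± 0.19 at 24 h and -0.24 ± 0.95 at 6 h in vehicle. These differences between the classes overlapped between the times, ranging from -0.10 to 0.34 at 24 h and from -1.15 to 1.07 at 6 h.

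**Figure D4:**
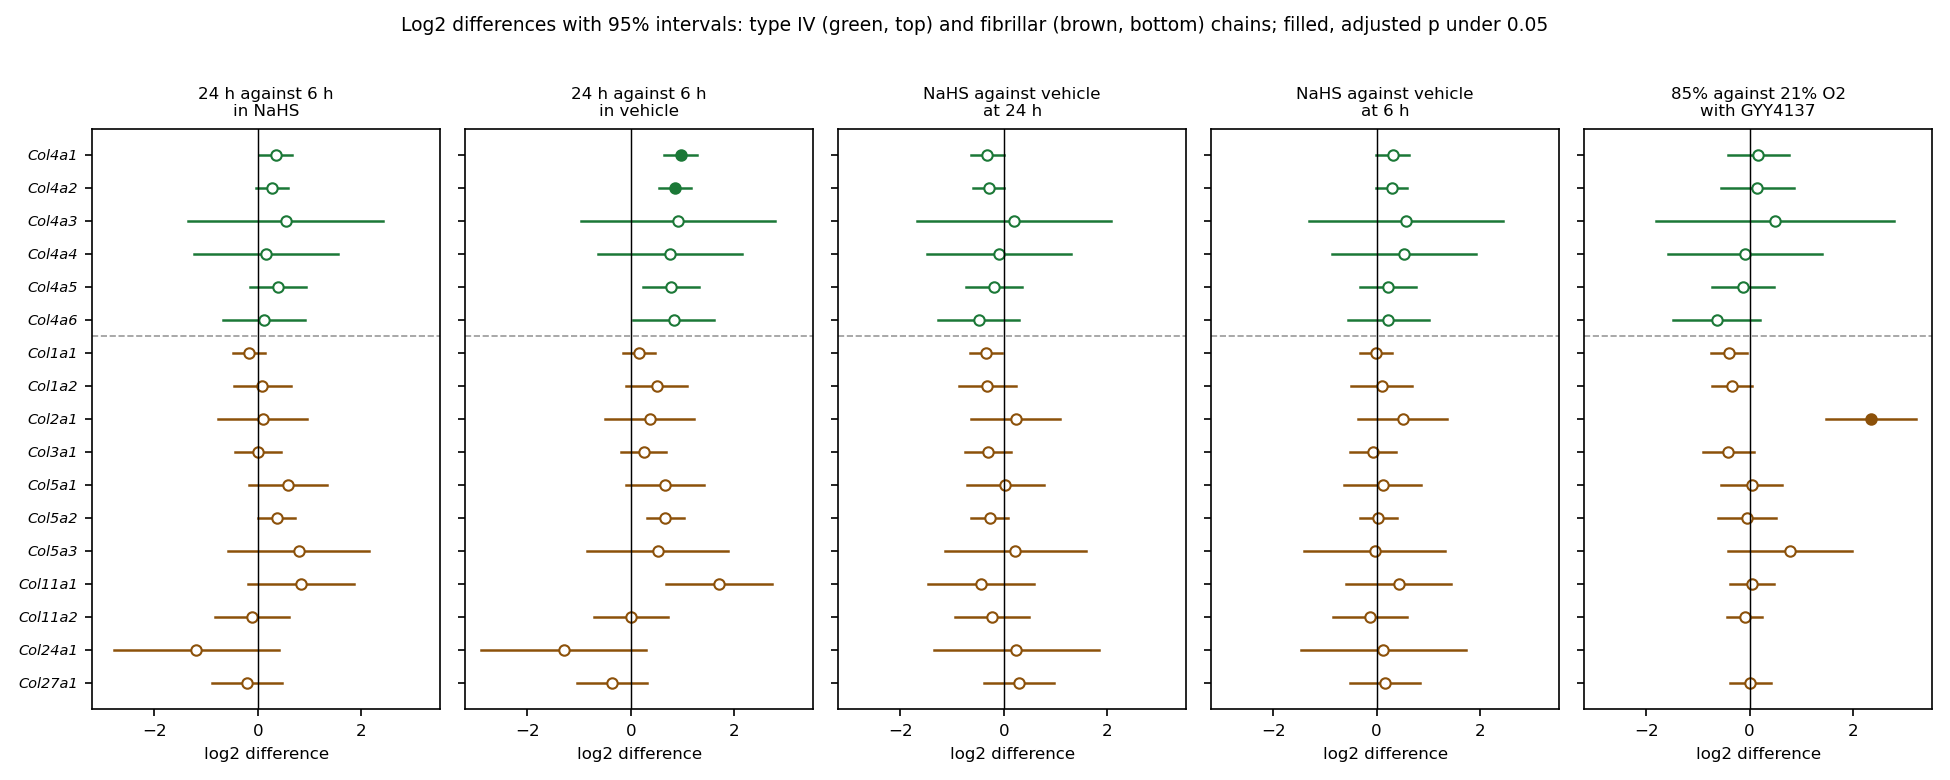
Log2 difference of each type IV and fibrillar chain with its 95% interval from limma in 5 comparisons, first-named group minus second. At 24 h against 6 h in vehicle all 6 type IV differences are positive and 2 were called, while the fibrillar ones lie on both sides of 0.

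Col8a1 had the largest difference among the called genes. It encodes a chain of type VIII collagen, a short-chain network former made by endothelium and smooth muscle (probe at chr16:57624471-57624530, minus strand, mm9). It had levels of 2.24, 2.11, 2.25 and 1.597 on the vehicle 24 h arrays, against 0.56, 1.30, 1.26 and -0.03 on the vehicle 6 h arrays. All 4 arrays at 24 h were above all 4 at 6 h, and the difference was 1.28 ± 0.26 (SE), or 2.43-fold, with an adjusted p of 0.0387 by limma. It was 1.34 within slide 1 and 1.22 within slide 2. The call was lost without vehicle 6 h replicate 1 (adjusted p = 0.119 by limma) or 4 (0.0775) and without vehicle 24 h replicate 1 (0.118), 2 (0.0982) or 3 (0.0849). With NaHS it had levels of 2.52, 2.05, 2.08 and 2.12 on the 24 h arrays, against 1.40, 1.07, 1.34 and 0.92 on the 6 h arrays. These did not overlap either, and the difference of 1.01 ± 0.26 (SE) had an adjusted p of 0.234 by limma.

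Col8a2, the other type VIII chain, had levels of 1.13, 0.57, 0.95 and 0.17 on the vehicle 24 h arrays, against 0.29, 0.12, -0.17 and -0.42 on the vehicle 6 h arrays. The groups overlapped, and the difference of 0.75 ± 0.29 (SE) had an adjusted p of 0.264 by limma and of 0.0272 with the replicate number as a block. A second measured probe of Col8a2 gave 0.21 in this comparison. With NaHS it had levels of 1.49, 1.04, 0.36 and 0.59 on the 24 h arrays, against 0.50, -0.01, -0.06 and -0.53 on the 6 h arrays, and its difference was 0.89 ± 0.29 (SE, adjusted p = 0.351 by limma). The second Col8a2 probe went the other way between the NaHS times, at -0.29.

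Col22a1 encodes a FACIT chain found at tissue junctions such as that of muscle and tendon (probe at chr15:71628906-71628965, minus strand, mm9), and it was well above background on 15 of the 16 arrays of the first experiment. It had levels of -3.21, -3.57, -3.85 and -3.20 on the vehicle 24 h arrays, against -4.78, -3.83, -4.80 and -4.20 on the vehicle 6 h arrays. The groups overlapped by a narrow margin, and the difference of 0.94 ± 0.23 (SE) had an adjusted p of 0.0653 by limma and of 0.0260 with the slide as a block. With NaHS it had levels of -3.49, -3.40, -4.03 and -3.39 on the 24 h arrays, against -4.69, -4.58, -4.44 and -4.73 on the 6 h arrays. Here the groups did not overlap, and the difference was 1.03 ± 0.23 (SE, adjusted p = 0.138 by limma, 0.0586 with the slide as a block).

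Among the remaining classes, 5 of 8 FACIT chains and 1 of 4 type VI chains had a positive difference between the vehicle times, with medians of 0.04 and -0.19, and 0 were called without a block by limma, where 2 FACIT and 0 type VI chains had an unadjusted p under 0.05. Col18a1, a basement membrane multiplexin whose C-terminal fragment is endostatin, differed by 0.05 ± 0.18 (SE) between the vehicle times, with levels of 1.07, 0.81, 0.94 and 0.29 at 24 h, against 0.83, 0.46, 1.05 and 0.54 at 6 h. These overlapped over most of their range. With NaHS it had levels of 1.001, 1.0004, 0.90 and 0.91 at 24 h, against 0.86, 0.54, 1.08 and 0.53 at 6 h, which overlapped as well. Col17a1, a transmembrane collagen of epithelial hemidesmosomes, was well above background on 0 of 4 vehicle 24 h arrays and 1 of 4 vehicle 6 h arrays. Its values there were -5.04, -6.14, -5.35 and -6.17 at 24 h, against -5.34, -4.86, -4.89 and -6.37 at 6 h, and those not well above background are only bounds. On the NaHS arrays it passed on 3 of 4 at 24 h and 0 of 4 at 6 h, with values of -4.81, -4.33, -5.51 and -4.97 at 24 h, against -5.72, -5.23, -5.21 and -7.41 at 6 h. On the arrays of the GYY4137 experiment it passed on all 8, with levels of -3.58, -3.06, -4.27 and -4.09 at 85% O2, against -4.31, -2.56, -5.70 and -4.71 at 21% O2, which overlapped. That difference was 0.57 ± 0.61 (SE, adjusted p = 0.535 by limma).

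The correlations among type VI chains were chosen after their values were seen and are given without a p-value. Col6a1 and Col6a2, whose products join that of Col6a3 in the type VI trimer of beaded filaments, varied almost as a unit over the 16 arrays, with Pearson's r of 0.98 and Spearman's rho of 0.98. Within slides 1 and 2 and in the GYY4137 experiment r was 0.98 each time. Col6a3 ran the other way in the first experiment, with r of -0.74 (rho -0.79) against Col6a1 and of -0.70 (rho -0.74) against Col6a2. Within slide 1 r of Col6a1 with Col6a3 was -0.64 and without the 2 farthest arrays -0.22 there, within slide 2 it was -0.78, and in the GYY4137 experiment it was -0.21. The Col6a1 and Col6a2 probes lie on the minus strand of chromosome 10, at chr10:76171538-76171597 and chr10:76058931-76058990 (mm9).

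Col6a1 had levels of 3.36, 3.32, 3.39 and 4.45 on the NaHS 24 h arrays, against 4.83, 5.35, 3.34 and 5.10 on the NaHS 6 h arrays. In Col6a2 the same arrays had 0.59, 0.55, 0.81 and 1.81 at 24 h, against 2.70, 3.02, 0.74 and 2.77 at 6 h. Replicate 4 was high at 24 h and replicate 3 low at 6 h in both genes, and the groups overlapped. The differences of -1.02 ± 0.47 and -1.37 ± 0.57 (SE) had adjusted p of 0.591 and 0.530 by limma.

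NaHS was then set against vehicle at each time. These comparisons and those of time share their arrays, so their values are not independent. At 24 h limma called 0 of the 38 collagen genes and 0% of all 27177 genes, and it called 0 with the slide or the replicate number as a block. Unadjusted p-values were under 0.05 for 604 genes, of which 1 was a collagen. At 6 h it likewise called 0, with 154 genes and 0 collagen genes under an unadjusted 0.05.

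The type IV differences from vehicle were mostly negative at 24 h and positive at 6 h, and 0 passed the test. At 24 h Col4a1 was 5.92 ± 0.21 on the NaHS arrays and 6.24 ± 0.12 on the vehicle arrays (SD, n = 4 each), a difference of -0.31 ± 0.15 (SE). At 6 h it was 5.58 ± 0.23 on the NaHS arrays and 5.27 ± 0.24 on the vehicle arrays, a difference of 0.31 ± 0.15 (SE). Of the 6 type IV chains 1 was positive at 24 h, with a median of -0.24, and 6 were positive at 6 h, with a median of 0.30. The median at 24 h was -0.38 without NaHS 24 h replicate 4 and -0.13 without NaHS 24 h replicate 2. The median at 6 h was 0.13 without NaHS 6 h replicate 4 and 0.47 without NaHS 6 h replicate 3, and 4 of 6 chains were positive there within slide 1, with a median of 0.0905.

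The NaHS difference at 24 h minus that at 6 h was negative in all 6 type IV chains, with a median of -0.59, and in 8 of 11 fibrillar chains, with a median of -0.24. Within slide 1 it was negative in 4 of 6 type IV chains, with a median of -0.13. For Col4a1 it was -0.62 ± 0.21 (SE, unadjusted p = 0.0102 and adjusted p = 0.99998 by limma) and for Col4a2 it was -0.58 ± 0.20 (SE, unadjusted p = 0.0120). Limma called 0 of all genes in this test of the difference, with 296 genes and 2 collagen genes at an unadjusted p under 0.05, which were Col4a1 and Col4a2.

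Col1a1 was the collagen gene with an unadjusted p under 0.05 at 24 h. It had levels of 7.52, 7.30, 7.35 and 6.999 on the NaHS 24 h arrays, against 7.62, 7.78, 7.53 and 7.63 on the vehicle 24 h arrays. Every NaHS array lay below every vehicle array, and the difference was -0.35 ± 0.14 (SE, unadjusted p = 0.0297, adjusted p = 0.9998 by limma). Col1a2 differed by -0.32 ± 0.25 (SE) and Col3a1 by -0.30 ± 0.21 (SE) at 24 h, and neither had an unadjusted p under 0.05. Col1a2 had levels of 9.09, 8.72, 8.80 and 8.36 on the NaHS 24 h arrays, against 9.12, 9.24, 9.03 and 8.83 on the vehicle 24 h arrays, which overlapped. Col3a1 had levels of 6.35, 6.23, 6.04 and 5.98 on the NaHS 24 h arrays, and the vehicle 24 h arrays given above overlapped them. At 6 h, Col1a1 had levels of 7.51, 7.46, 7.58 and 7.30 on the NaHS arrays and differed from vehicle by -0.02. Col1a2 had levels of 8.91, 8.53, 9.002 and 8.16 on the NaHS 6 h arrays and differed by 0.09. Col3a1 had levels of 6.45, 6.35, 6.04 and 5.75 on the NaHS 6 h arrays and differed by -0.06. The NaHS and vehicle 6 h arrays overlapped in all 3 genes. The 95% intervals of the Col1a1 difference ran from -0.66 to -0.04 at 24 h and from -0.33 to 0.29 at 6 h.

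Oxygen was compared with GYY4137 present throughout. Of the 37 collagen genes tested 3 were called by limma, Col2a1 and Col22a1 higher and Col8a2 lower at 85% O2, against 17.1% of all 27945 genes tested, 10.7% higher and 6.36% lower. Collagen differences were positive for 19 of 37 genes with a median of 0.01, and those of all genes for 55.5% with a median of 0.06. With the replicate number as a block 17.3% of all genes were called.

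Col2a1, the main fibrillar chain of cartilage (probe at chr15:97806071-97806130, minus strand, mm9), had levels of -1.51, -1.23, -0.88 and 0.15 on the 85% O2 arrays, against -2.66, -3.37, -3.80 and -3.01 on the 21% O2 arrays. All 4 arrays at 85% O2 were above all 4 at 21% O2. The difference of 2.35 ± 0.38 (SE), or 5.09-fold, had an adjusted p of 0.00720 by limma. In the first experiment it had levels of -1.57, -1.21, -1.73 and -1.70 on the NaHS 24 h arrays and -1.91, -2.11, -1.32 and -1.24 on the NaHS 6 h arrays. On the vehicle arrays it had -0.89, -3.14, -1.55 and -1.55 at 24 h, against -2.49, -2.64, -1.77 and -1.69 at 6 h. These 4 groups overlapped.

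Col22a1 had levels of -2.90, -2.40, -2.20 and -2.04 on the 85% O2 arrays, against -4.06, -4.00, -3.70 and -3.27 on the 21% O2 arrays. The groups did not overlap, and the difference of 1.37 ± 0.24 (SE), or 2.59-fold, had an adjusted p of 0.00877 by limma. Both calls held when any of the 8 arrays was left out.

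Col8a2 had levels of -0.28, 0.07, -0.65 and -0.37 on the 85% O2 arrays, against 0.53, 0.16, 1.36 and 1.37 on the 21% O2 arrays. The groups did not overlap, and it fell by 1.16 ± 0.30 on the log2 scale (SE, adjusted p = 0.0338 by limma). With the replicate number as a block the adjusted p was 0.0733 by limma, and a second probe of the gene gave -0.63. The call was also lost without replicate 3 or 4 of the 21% O2 arrays (adjusted p = 0.0749 and 0.0741 by limma) and without replicate 1, 3 or 4 of the 85% O2 arrays (0.0675, 0.0927 and 0.0824). Col8a1, its partner chain, differed by -0.62 ± 0.31 (SE, adjusted p = 0.195 by limma), with levels of 1.52, 1.38, 1.204 and 1.31 on the 85% O2 arrays, against 1.66, 1.35, 2.96 and 1.95 on the 21% O2 arrays.

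With the replicate number as a block 2 further genes passed. Col18a1 had levels of 1.80, 1.68, 1.25 and 1.58 on the 85% O2 arrays, against 1.11, 1.30, 0.59 and 0.77 on the 21% O2 arrays. The difference of 0.63 ± 0.19 (SE) had an adjusted p of 0.0522 by limma and of 0.0272 with the block. Col9a1, a FACIT chain of cartilage fibrils, had levels of -3.94, -3.28, -3.63 and -4.01 on the 85% O2 arrays, against -3.46, -2.53, -2.56 and -3.11 on the 21% O2 arrays. Its difference of -0.80 ± 0.25 (SE) had an adjusted p of 0.0633 by limma and of 0.0227 with the block, and the groups of both genes overlapped narrowly. Col9a1 also passed with quantile normalization, median centring and the deposited values, and without replicate 1 of 21% O2 or replicate 2 of 85% O2. Col18a1 also passed when a probe had to be well above background on at least 8 arrays, and without replicate 2 of 21% O2.

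Limma called 0 of the 6 type IV chains between the oxygen levels. Of these chains 0 had an unadjusted p under 0.05, against 7 of the 37 collagen genes and 9787 of all 27945 genes tested. Of the 6 chains 3 were positive, with a median of 0.03 that was -0.20 without replicate 1 and 0.40 without replicate 3 of 21% O2. Col4a1 had levels of 6.02, 6.28, 6.65 and 6.19 on the 85% O2 arrays, against 5.58, 5.95, 6.80 and 6.15 on the 21% O2 arrays, with a 95% interval of the difference from -0.43 to 0.76. Col4a2 had levels of 5.40, 5.997, 6.19 and 5.65 on the 85% O2 arrays, against 5.01, 5.46, 6.43 and 5.74 on the 21% O2 arrays. Both genes overlapped between the oxygen levels. Col4a3 had levels of -3.01, -2.19, -0.37 and 0.02 on the 85% O2 arrays, against -3.44, -3.37, 0.37 and -1.06 on the 21% O2 arrays. Its arrays spread over more than 3 log2 units in both groups.

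The remaining type IV chains overlapped as widely. Col4a4 had levels of -0.93, -0.15, 0.47 and 0.38 on the 85% O2 arrays, against -1.23, -0.77, 1.87 and 0.27 on the 21% O2 arrays. Col4a5 had levels of 1.69, 1.96, 1.91 and 1.64 on the 85% O2 arrays, against 1.34, 1.76, 2.68 and 1.95 on the 21% O2 arrays. Col4a6 had levels of -0.43, -0.27, 0.19 and -0.72 on the 85% O2 arrays, against -0.37, 0.03, 1.39 and 0.25 on the 21% O2 arrays. Replicate 3 at 21% O2 was the highest of its group for all 6 type IV chains.

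Of the 10 fibrillar chains tested 5 were positive, with a median of -0.02. Col1a1 had levels of 7.36, 7.54, 7.21 and 6.91 on the 85% O2 arrays, against 7.80, 7.73, 7.504 and 7.56 on the 21% O2 arrays, a difference of -0.39 ± 0.15 (SE, adjusted p = 0.108 by limma). With median centring Col1a1 was called. Col1a2 had levels of 8.41, 8.65, 8.11 and 7.88 on the 85% O2 arrays, against 8.71, 8.58, 8.58 and 8.55 on the 21% O2 arrays. Col3a1 had levels of 6.47, 6.25, 5.98 and 5.47 on the 85% O2 arrays, against 6.46, 6.48, 6.66 and 6.23 on the 21% O2 arrays. The groups overlapped in all 3 genes, and the differences of Col1a2 and Col3a1 were -0.34 ± 0.17 and -0.41 ± 0.22 (SE). Col5a2 had levels of 2.92, 2.87, 2.80 and 2.60 on the 85% O2 arrays, against 2.52, 2.67, 3.61 and 2.58 on the 21% O2 arrays, where replicate 3 was above all others.

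**Figure D5:**
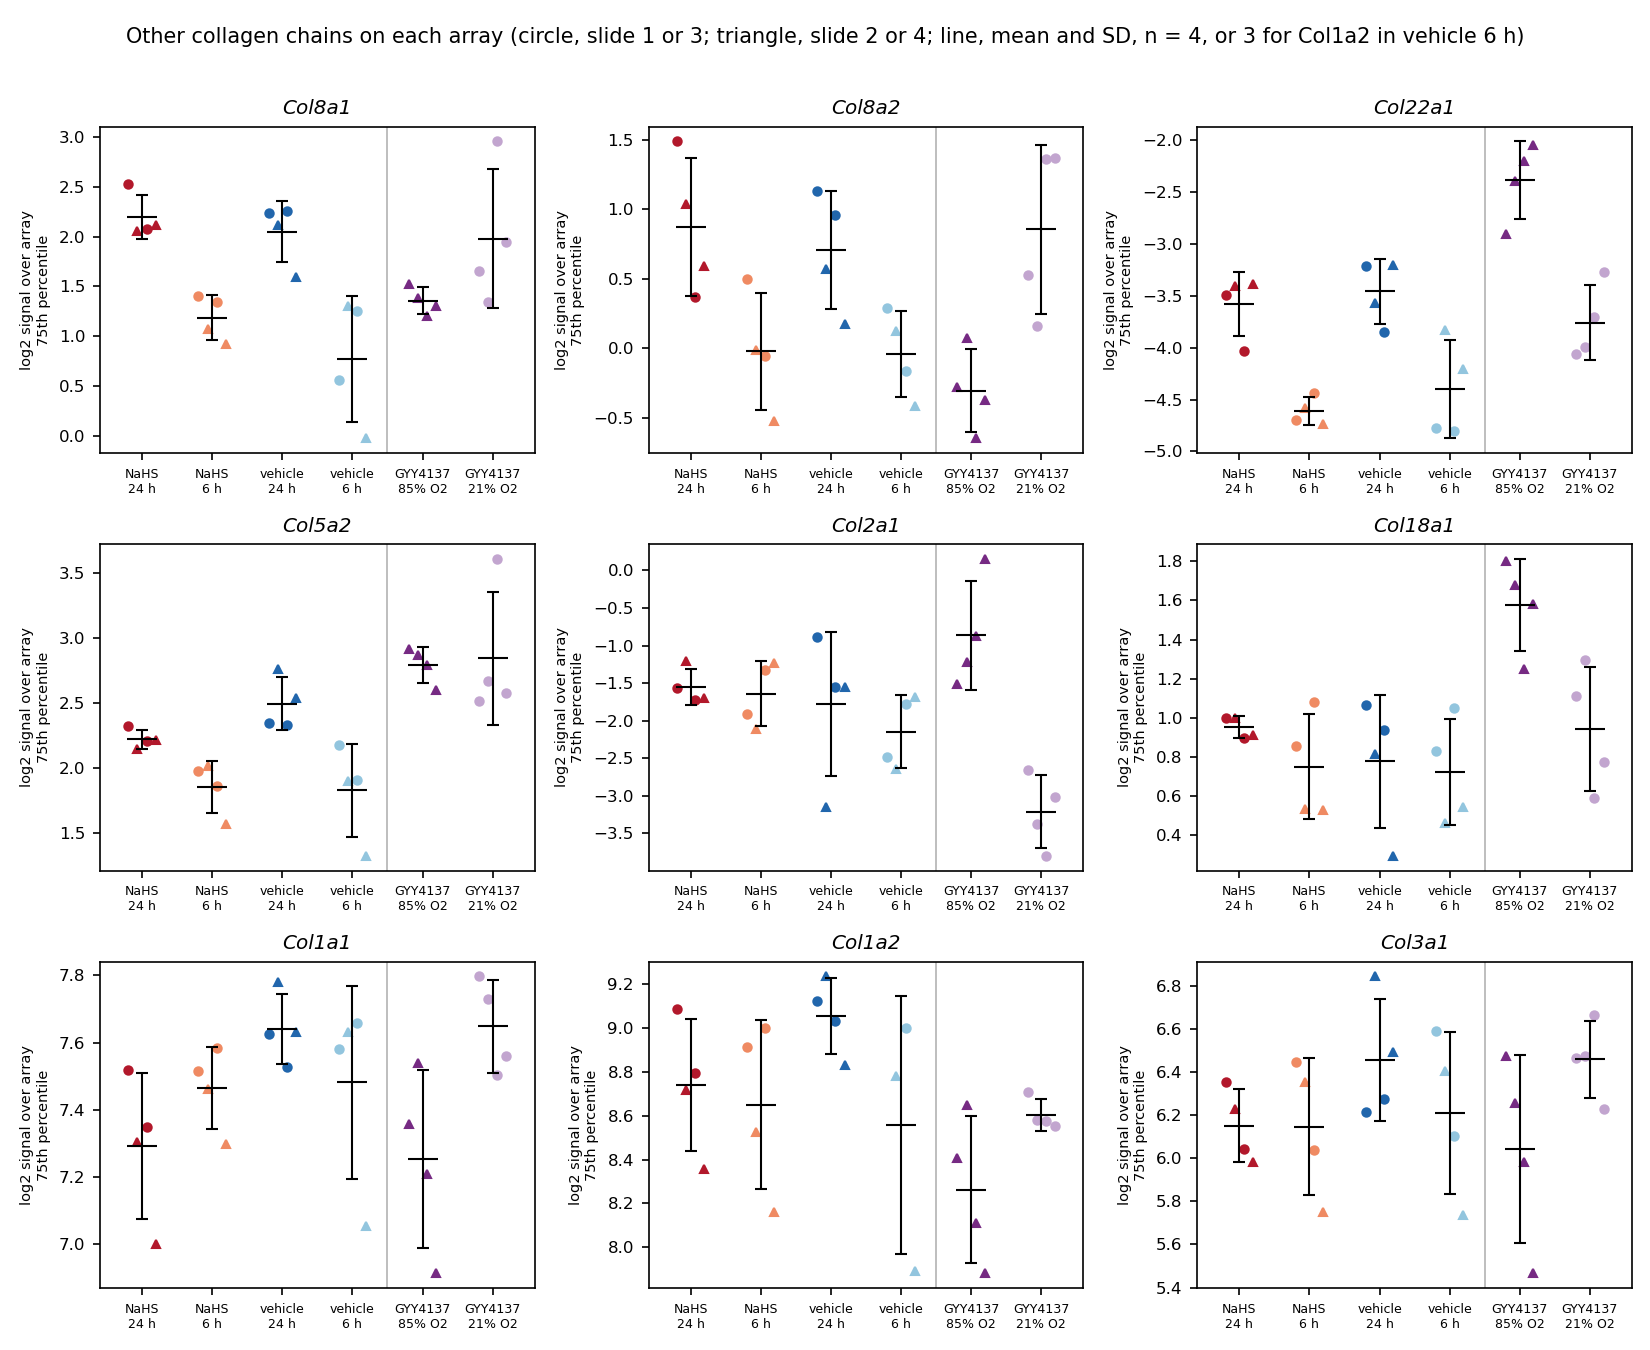
Level of 9 further collagen genes on each array of the 6 groups, as log2 signal relative to the 75th percentile of that array, with circles for slides 1 and 3, triangles for slides 2 and 4, and a line with bars for the mean and SD of 4 arrays (3 for Col1a2 in vehicle 6 h). Col8a1 lies higher at 24 h than at 6 h with NaHS and with vehicle, and Col2a1 and Col22a1 lie higher at 85% O2 than at 21% O2.

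Genes that act with the collagens were counted in fixed lists. Among 16 basement membrane partners 2 rose between the vehicle times, Hspg2, which encodes the heparan sulfate proteoglycan perlecan, by 0.81 ± 0.15 (SE, adjusted p = 0.0253 by limma) and Nid1, which encodes the nidogen that links the laminin and type IV networks, by 0.84 ± 0.19 (SE, adjusted p = 0.0477). Of these partners 12 had a positive difference, with a median of 0.22. Mmp2, a protease that cleaves type IV collagen and gelatin, rose by 1.22 ± 0.26 (SE, adjusted p = 0.0408), as 1 of 10 tested proteases and inhibitors. Loxl3, a lysyl oxidase homologue that cross-links collagen, rose by 0.65 ± 0.14 between the vehicle times (SE, adjusted p = 0.0499) and by 1.23 ± 0.14 between the NaHS times (SE, adjusted p = 0.0167), as 1 of 17 processing and cross-linking genes each time. With the slide as a block Bmp1, which removes procollagen C-propeptides, and the inhibitor Timp2 passed as well. Limma called 0 of 16 collagen modifying enzymes and chaperones, 0 of 9 receptors and 0 of 18 genes of TGF-beta signalling in the vehicle groups, with 6, 4 and 2 of them at an unadjusted p under 0.05. Of the 16 modifying enzymes 14 had a positive difference. Over all genes 1.16% were called, 3366 of 27177 had an unadjusted p under 0.05 and 52.8% had a positive difference.

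The same lists were counted between the oxygen levels, where 17.1% of all genes were called, 10.7% higher and 6.36% lower. That balance over all genes turned with median centring, under which 1670 of 4830 calls were higher. Plod2, a lysyl hydroxylase, fell by 0.78 ± 0.18 on the log2 scale (SE, adjusted p = 0.0249 by limma), Serpinh1, the collagen chaperone HSP47, by 0.67 ± 0.17 (adjusted p = 0.0318) and Mia3, which exports procollagen from the endoplasmic reticulum, by 0.45 ± 0.13 (adjusted p = 0.0433), as 3 of 16 modifying enzymes and chaperones. Pcolce, an enhancer of C-propeptide removal, fell by 0.68 ± 0.18 (adjusted p = 0.0382), and the collagen receptor subunit gene Itga1 fell by 1.02 ± 0.23 (adjusted p = 0.0213), while Itgb1, its partner subunit gene, rose by 0.71 ± 0.16 (adjusted p = 0.0207). Smad3, a mediator of TGF-beta signalling, rose by 0.42 ± 0.11 (adjusted p = 0.0358) as 1 of 18, and 0 of 16 basement membrane partners passed by limma, with 1 at an unadjusted p under 0.05. Over all genes 9787 of 27945 had an unadjusted p under 0.05 there.

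Marker lists of cell types were set beside the vehicle time results. The summed linear level of the 10 smooth muscle and pericyte markers, in multiples of the array's 75th percentile, was 1252 to 1420 on the vehicle 24 h arrays and 680 to 1262 on the vehicle 6 h arrays. All 10 had a positive difference, with a median of 0.77, and Notch3 was called higher. Between the NaHS times, where 0 collagen genes were called, 9 of these 10 were positive, with a median of 0.72 and 0 called. The 12 fibroblast markers summed to 266.03 to 325 on the vehicle 24 h arrays and 195 to 301 on the vehicle 6 h arrays. Only 3 of 11 tested fibroblast markers were positive, with a median of -0.65, and Thy1 was called higher. With the slide as a block 1 of them was called higher and 1 lower. The 12 alveolar type II markers summed to 46.9 to 71.8 on the vehicle 24 h arrays and 58.6 to 115 on the vehicle 6 h arrays. Of 11 tested, 3 were positive, with a median of -0.12, and Sftpa1 was called lower. The 8 endothelial markers summed to 12.2 to 15.4 at 24 h and 9.25 to 16.5 at 6 h, and 6 of 8 had a positive difference, with a median of 0.70 and 0 called. Of the 6 general epithelial markers 0 were positive between the vehicle times, with a median of -0.25 and 0 called. Of 4 mesothelial markers 3 were positive, with a median of 0.26 and 0 called. Every marker of these lists was well above background on at least 1 of the 24 arrays, and the part of these cells in the Col4a1, Col4a2 and Col8a1 differences was not tested. At 85% O2 the smooth muscle and pericyte markers summed to 772 to 1086, against 966 to 1288 at 21% O2. Of these 10 markers 2 were positive, with a median of -0.32, and Des was called lower and Notch3 higher. The fibroblast markers summed to 211 to 335 at 85% O2 and 290 to 363 at 21% O2. Of 11 tested, 1 was positive, with a median of -0.22, and Thy1 was called lower. The 8 endothelial markers summed to 5.08 to 7.84 at 85% O2 and 7.55 to 9.52 at 21% O2. Of the 6 tested, 5 nonetheless had a positive difference at 85% O2, with a median of 0.59, and Tek was called higher.

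Different probes of a gene did not always move together. Of the 11 collagen genes with more than 1 measured probe, 4 had probes of opposite sign between the vehicle times (Col4a6, Col14a1, Col16a1 and Col25a1) and 3 between the oxygen levels (Col16a1, Col20a1 and Col25a1). Between the NaHS times 6 did (Col4a4, Col4a6, Col8a2, Col16a1, Col20a1 and Col25a1). For NaHS against vehicle 5 did at 24 h and 5 at 6 h. Col4a1, Col8a1, Col2a1 and Col22a1 each had a single probe, and the Col4a1 probe was spotted 10 times on the array.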

How the data were processed

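The collagen genes, gene lists and comparisons were chosen with earlier results of these data known. The deposited 1-colour (Cy3) scanner files hold processed signal intensity per spot from Agilent Feature Extraction 10.7.3.1, which, per the file headers, had subtracted background, detrended the signal and replaced the dimmest values. The authors' deposited value table holds log2 values whose normalization is not given in the sources used here, and it was used only as an alternative. Probe coordinates are mm9, per the file headers. Outlier spots were dropped, spots of a probe averaged, and log2 signal was taken minus the array's 75th percentile.

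A gene entered a test when its probe was well above background on at least 4 arrays of the experiment. The experiments were fitted separately by limma (3.58.1, under R 4.3.3; lmFit and eBayes, group means, no block), with Benjamini-Hochberg adjustment over all genes tested and a threshold of 0.05. The steps were tested on simulated data. Members called in any comparison with or without the slide block, Col1a1, Col1a2, Col3a1, all type IV chains, Col17a1 and Col18a1 are given on every array, and others such as Col6a1, Col6a2, Col9a1 and Col11a1 were named after their values were seen. The precision is limited by the 4 arrays of a group. Correlations used 100000 permutations, or all orders for 8 arrays or fewer, without regard to group, slide or replicate number. No correlation was among the planned tests.

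Replicate numbers are taken from the labels. In the first experiment, deviations from the group means correlated at 0.53 to 0.78 between arrays of the same number (24 pairs), at 0.41 to 0.71 between other numbers on the same slide and at -0.76 to -0.45 across slides. In the second, they correlated at 0.19 to 0.30 for the same number (4 pairs), against -0.24 to 0.22 for others. There each number lay in the same column of both slides, so number and column cannot be told apart. In the first, the medians were 0.65 for the same number and 0.63 for other numbers on the same slide. Each number lay on a single slide there, so the replicate block contains the slide. Whether numbers pair the arrays is not shown, and the replicate block was run as an alternative. Alternatives tried were the slide and replicate blocks, median centring, quantile normalization, normexp background correction, the deposited values, other probe filters, the mean of a gene's probes, only the groups compared, each slide alone and leaving out each array.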

Additional observations from a re-analysis of the deposited data

Results flagged for a closer look

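In groups of 4 arrays, a member was listed when its highest or lowest array stood apart from the other 3 by a share of the group's range above Dixon's 95% critical value. Of 237 sets of 4 values, 225 of them of a gene in a group and the rest class means, 13 met this, or 5.49%, and chance alone gives about 1 in 20. Levels are log2 signal over the array's 75th percentile.

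Among fibrillar chains, Col11a1 stood at 2.57 on replicate 1 of GYY4137 at 85% O2 (others 3.06 to 3.12), and Col11a2 at -5.26 on replicate 1 of NaHS 6 h (others -4.04 to -3.98). Col1a1 stood at 7.05 on replicate 4 of vehicle 6 h (others 7.58 to 7.66), and Col1a2 at 8.71 on replicate 1 of GYY4137 at 21% O2 (others 8.55 to 8.58). Col5a2 stood at 3.61 on replicate 3 of GYY4137 at 21% O2 (others 2.52 to 2.67), Col5a3 at 5.76 on replicate 1 of vehicle 24 h (others 5.24 to 5.30), and Col24a1 at -4.69 on replicate 4 of NaHS 24 h (others -7.32 to -6.87). Col24a1 was well above background on 5 of 16 arrays of that experiment. Its other values here lay below every level well above background on their arrays and are only bounds.

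Among type VI chains, Col6a1 stood at 4.45 on replicate 4 of NaHS 24 h (others 3.32 to 3.39), Col6a2 at 0.74 on replicate 3 of NaHS 6 h (others 2.70 to 3.02), and Col6a4 at -0.58 on replicate 1 of GYY4137 at 85% O2 (others -6.16 to -5.33). Col6a4 was well above background on only 4 of the 8 arrays of the GYY4137 experiment. Of the remaining classes, Col16a1 stood at 4.52 on replicate 4 of vehicle 6 h (others 5.30 to 5.35), Col22a1 at -4.03 on replicate 3 of NaHS 24 h (others -3.49 to -3.39), and Col8a1 at 2.52 on replicate 1 of NaHS 24 h (others 2.05 to 2.12).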

How the results depend on the processing

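Between the vehicle times 3 collagen genes were called. The count was 5 with the slide as a block, 6 with the replicate block, and 0 with median centring, with only the groups compared, within slide 1 and within slide 2, where fewer arrays estimated the spread. Of all 27177 genes, 1 was called with median centring, 0 with only the groups compared, 0 within slide 1 and 1 within slide 2. Leaving out 1 array gave 0 to 4 collagen calls, with 0 without vehicle 24 h replicate 1, where 5 of all 27177 genes were called. The 4 came without vehicle 6 h replicate 2, where 1.49% of all genes were called. In the oxygen comparison the count of 3 was 5 with median centring, and 2 to 6 with 1 array left out, where 6 came without replicate 2 of 85% O2. The share of all genes called, 17.1% in the main fit, was 17.3% with median centring and 7.22% to 19.8% with 1 array left out. The fibrillar median of 0.36 between the vehicle times was -0.0303 within slide 1 and 0.0893 without replicate 4 of vehicle 6 h and NaHS 6 h together, and 0.0893 to 0.49 with 1 array left out. For NaHS against vehicle at 24 h the fibrillar median of -0.23 was -0.0808 with quantile normalization, -0.0814 with the deposited values, -0.0747 within slide 1 and -0.42 within slide 2, and -0.32 to 0.0197 with 1 array left out. In the oxygen comparison the fibrillar median of -0.02 was -0.16 with median centring. The vehicle time difference of Col4a3 reversed to -0.16 within slide 2, and the cause was not tested. Median centring moved the median of all genes in the oxygen comparison to -0.09, against 0.06, and 1670 of 4830 calls were then higher at 85% O2, against 2988 of 4765. Quantile normalization gave 2489 higher of 4804, and the deposited values 2508 of 4844. Taking the replicate number as a block ended the call of Col8a2 in the oxygen comparison and ended no other call of these collagen genes. All 6 type IV chains were positive between the vehicle times under every setting run except within slide 2, where 5 were. Leaving out replicate 4 of both 6 h groups and median centring with a slide block were added after the data were seen. Arrays within a slide were 2 a group, which limits those values.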

Other observations

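Chains that share a collagen type differed in how closely they varied together over the arrays of the first experiment. These combinations were chosen after the values were seen and are given without a p-value. Pearson's r was 0.84 for the type I chains Col1a1 and Col1a2 over 15 arrays (Spearman's rho 0.74), and it was 0.74 within slide 1, 0.85 within slide 2 and 0.95 in the GYY4137 experiment. It was 0.82 for the type VIII chains Col8a1 and Col8a2 (rho 0.87), with 0.77 within slide 1, 0.87 within slide 2 and 0.83 in the GYY4137 experiment. The type IX chains Col9a1 and Col9a2 had 0.91 (rho 0.78), but -0.16 within slide 1 and 0.62 within slide 2. The type V chains Col5a1 and Col5a2 had 0.64 (rho 0.43), and 0.17 without the 2 farthest arrays. The type XI chains Col11a1 and Col11a2 had -0.16 (rho -0.22).

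Macrophage and leukocyte markers had 8 of 9 positive differences between the vehicle times, with a median of 0.78 and Cd53 called higher by limma, and 7 of 9 between the NaHS times, with a median of 0.57 and the complement gene C1qa called higher. Their summed linear level was 8.70 to 16.7 on the NaHS 24 h arrays and 8.51 to 11.04 on the NaHS 6 h arrays, and 9.40 to 19.4 on the vehicle 24 h arrays and 8.93 to 12.5 on the vehicle 6 h arrays.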
